A study of Mus musculus with 2 samples.

Results

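The genes described here are *Hif1a* and 9 genes of glucose uptake and glycolysis (*Slc2a1*, *Hk2*, *Pfkp*, *Tpi1*, *Gapdh*, *Pgk1*, *Eno1*, *Pkm* and *Ldha*), 10 of the 22337 gene symbols in a table of single-cell RNA sequencing. They were chosen by name, and each was followed across the 14 annotated cell types and between both groups of grafts. The cells came from Bm12 hearts, whose altered I-A molecule is recognised by B6 CD4+ T cells, 14 days after heterotopic transplantation. Donors and recipients were male. The donors were *Il33*+/+ Bm12 mice (3 hearts labelled IL-33+) or Bm12 mice bred onto *Il33*-/- (3 hearts labelled IL-33-), transplanted into B6 recipients whose own cells carry *Il33*, and the age of the mice is not given in the sources used here. The cells of the 6 hearts were marked with 6 hashtag antibodies, pooled and run as 1 library, so the heart was the replicate and all hearts shared 1 library.

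Glycolysis turns glucose into pyruvate in the cytosol. *Slc2a1* encodes GLUT1, which carries glucose into the cell, and *Hk2* encodes a hexokinase that phosphorylates it. *Pfkp* encodes the platelet-type subunit of phosphofructokinase, a step at which flux is regulated. *Tpi1*, *Gapdh*, *Pgk1*, *Eno1* and *Pkm* encode the enzymes of the later steps, and *Ldha* encodes the lactate dehydrogenase subunit that favours the conversion of pyruvate to lactate. *Hif1a* encodes the oxygen-regulated subunit of HIF-1, a transcription factor that binds a core of ACGTG or GCGTG and activates many of these genes. HIF-1 activity is set largely through the stability of the protein, which transcript counts do not measure. Activated T cells and inflammatory macrophages are known for high glycolysis.

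The table held 4441 cells, with 1500 to 14977 unique molecular identifiers (UMIs, counted transcript molecules) per cell and a median of 3700. The hearts gave 230 to 1666 cells and 908135 to 7012949 UMIs, and no cell barcode occurred more than once. Some types were thin in single hearts, such as the annotated fibroblasts of hearts 2 and 5 (6 and 4 cells) and the B cells of heart 5 (4 cells). The 83 cells annotated as unconventional T cells had a median of 10175 UMIs, and 51 of them were among the 6% of cells with the highest Scrublet scores, which rank cells by their likeness to doublets. These cells also held more of 9 macrophage markers (summed 3360 CPM) than of 5 T cell markers (763 CPM). In the cells annotated as monocyte-derived dendritic cells (Mo-DCs), 8 neutrophil markers summed to 16077 CPM (1828 to 73436 CPM by heart) and 6 dendritic cell markers to 173 CPM, so that label is used here as the annotation gives it. Macrophage, monocyte, B cell, NK cell, Treg, naive T cell and fibroblast markers were each highest in the type of that name, and the annotated fibroblasts also held the most of the endothelial markers. *Il33* did not check the labels, since the fibroblasts labelled IL-33+ held 7, 0 and 121 of its UMIs in 34, 6 and 270 cells, and those labelled IL-33- held 9, 3 and 5 in 31, 4 and 30 cells. Whether the counted 3′ end lies outside the deleted part of the gene is not given in the sources used here, so the groups are named by their labels throughout.

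Levels are in CPM, a gene's UMIs scaled to the same total in each cell. The mean of a type was taken in each heart and then over the 6 hearts, with the standard deviation (SD) over hearts. The types had been annotated from clusters of these same cells and genes, so levels across types are a description with no test. Fewer transcripts of a gene in a type can come from fewer cells that make it or from less in each cell, and a mean does not tell these apart. The genes are not compared with one another, because 3′ counting captures each with its own efficiency. Reads of *Gapdh* are the least certain. The last 500 bases of its longest coding transcript aligned at 42 other places of the mouse genome (90 bases or more, 95% identity or more), those of *Eno1* at 4, *Pgk1* at 3 and *Tpi1* at 1, and those of the other 6 genes at none.

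*Hif1a* (GRCm38, chr12:73901375-73947530, plus strand) was highest in effector and effector memory T cells (Tem/eff) in 6 of 6 hearts. Its level there was 1424, 1712 and 1885 CPM in the hearts labelled IL-33+ and 1212, 1594 and 1695 CPM in those labelled IL-33- (mean 1587 ± 238, n = 6). Regulatory T cells (Treg) came next, with 1420, 1026 and 1526 CPM in the first group and 1090, 1028 and 759 CPM in the second (1142 ± 283). The step from Tem/eff to Treg was 446 ± 352 CPM within hearts and was positive in 6 of 6. Monocytes (837 ± 259 CPM), macrophages (635 ± 179), unconventional T cells (631 ± 165) and Mo-DCs (550 ± 220) followed. None of these 4 differed from its neighbour in the order by more than the SD of the difference. The remaining types ran from resident memory-like T cells (Trm-like, 359 ± 78.8 CPM) to NK cells (177 ± 37.8) and central memory T cells (Tcm, 164 ± 37.3) and, of the steps among them, only that from Trm-like cells to conventional dendritic cells (cDCs) passed its SD (87.5 ± 71.5 CPM, positive in 5 of 6 hearts).

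Among T cells, *Hif1a* spanned a wide range. Relative to naive T cells (Tn, 266 ± 116 CPM) of the same heart, the difference on the log2(CPM + 10) scale was 2.63 ± 0.59 in Tem/eff and 2.13 ± 0.71 in Treg, higher in 6 of 6 hearts for both. Trm-like cells were only 0.50 ± 0.58 above Tn cells, in 4 of 6 hearts. After each cell was thinned to 1500 UMIs, 78.3 ± 6.41% of Tem/eff, 70.9 ± 7.98% of Treg, 30.9 ± 11.4% of Tn and 17.3 ± 5.11% of Tcm cells held a *Hif1a* UMI (mean ± SD over hearts). Before thinning the pooled shares were 97.2%, 84.8%, 46.9% and 47.7%, in that order.

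**Figure D1:**
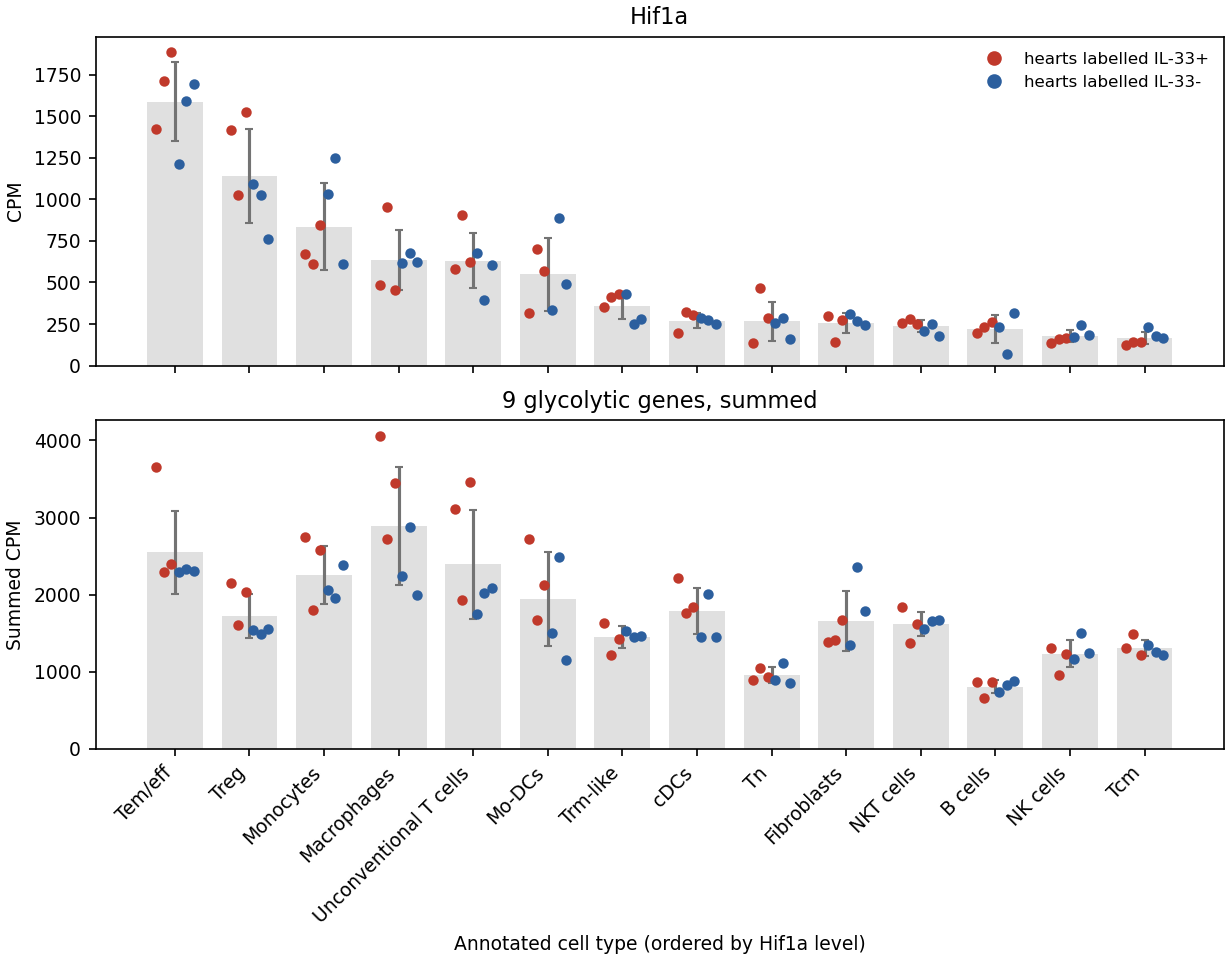
Level of *Hif1a* (top, CPM) and the summed level of the 9 glycolytic genes (bottom, summed CPM) by annotated cell type, ordered by *Hif1a*. Bars are means over 6 hearts, error bars the SD, and points single hearts; *Hif1a* stood at 1587 CPM in Tem/eff and 164 CPM in Tcm cells, whereas the glycolytic sum was highest in macrophages (2890 CPM).

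The 9 glycolytic genes did not share this order. Their summed level was 2890 ± 765 CPM in macrophages, 2548 ± 542 in Tem/eff, 2392 ± 710 in unconventional T cells and 2256 ± 378 in monocytes. It was lowest in Tn cells (956 ± 103 CPM) and B cells (808 ± 90.1 CPM). Treg, the type with the next highest *Hif1a* after Tem/eff, stood at rank 7 of the 14 types in this sum, at 1727 ± 286 CPM. Macrophages, with a *Hif1a* level of 635 CPM, stood first by the mean but in only 3 of 6 hearts, and their mean by label was 3408 CPM (IL-33+) and 2373 CPM (IL-33-). Unconventional T cells, Tem/eff and monocytes led in 1 heart each. The sum gives most weight to the genes with the most CPM, and capture differs between genes, so its order describes the sum alone. In fibroblasts, *Hk2* made up 726 CPM of a sum of 1659 CPM.

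**Figure D2:**
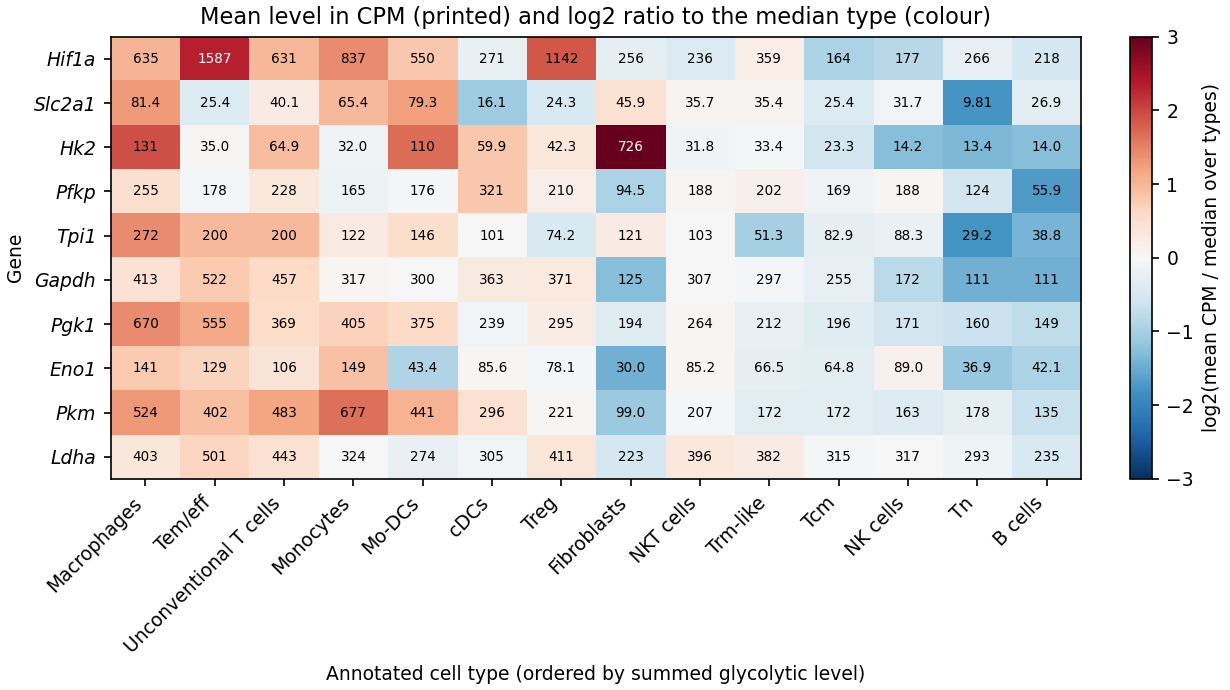
Mean level of each gene (rows) in each annotated cell type (columns, ordered by the summed glycolytic level), printed in CPM. Colour is the log2 ratio to the gene's median over types and is capped at 3 in either direction; macrophages are above the median in all 10 rows, and *Hk2* stands out in fibroblasts (726 CPM).

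Of the genes of uptake and the first steps, *Slc2a1* (chr4:119108711-119137983) was near 80 CPM in macrophages (81.4 ± 30.7) and Mo-DCs (79.3 ± 39.8) and lowest in Tn cells (9.81 ± 8.14 CPM, 8 UMIs in all). No step between neighbours in its order passed the SD. *Pfkp* (chr13:6579768-6648777) was highest in cDCs in 5 of 6 hearts (321 ± 98.0 CPM), followed by macrophages (255 ± 53.2), and lowest in B cells (55.9 ± 38.4). Within hearts, cDCs exceeded Mo-DCs in *Pfkp* by 0.84 ± 0.29 on the log2 scale, in 6 of 6, as did 9.60% of all genes measured in both. *Hif1a*, *Slc2a1* and *Tpi1* were lower in cDCs in 6 of 6 hearts (by means of 0.91, 1.86 and 0.48). The share of all genes lower in every heart was not counted. Mo-DCs numbered 4 in heart 2 and 7 in heart 5, and they held the neutrophil markers described above.

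*Hk2* (chr6:82725025-82774454, minus strand) had the sharpest pattern of the 10 genes, with a mean in the highest type 54.2 times that in the lowest. It was highest in the annotated fibroblasts in 6 of 6 hearts. The values were 346, 371 and 667 CPM in the hearts labelled IL-33+ and 408, 1667 and 896 CPM in those labelled IL-33- (mean 726 ± 508). The lowest of these hearts was still above every macrophage value, which ran from 67.5 to 211 CPM (131 ± 49.2). Tn cells held 13.4 ± 14.8 CPM from 11 UMIs. Every other member but *Slc2a1* was lower in fibroblasts than in macrophages in 6 of 6 hearts, and *Slc2a1* was lower in 5. The share of all genes lower in fibroblasts in every heart was not counted. After thinning, 46.9 ± 15.1% of fibroblasts, 12.3 ± 3.51% of macrophages and 1.98 ± 2.48% of B cells held a *Hk2* UMI (66.9%, 42.0% and 3.85% of all cells before thinning). Dissociation and stress genes were also highest in fibroblasts (summed 15713 CPM, against 4753 CPM in macrophages), and their part in the *Hk2* level was not tested. The median log2 difference between fibroblasts and macrophages was -1.43 over the 9 glycolytic genes and -0.06 over the 8795 genes measured in both, and for *Hk2* it was 2.22 ± 0.60.

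The annotated fibroblasts were not uniform. A split made after the values were seen separated 293 cells with UMIs of 2 or more fibroblast markers (*Col1a1*, *Col1a2*, *Col3a1*, *Pdgfra*, *Dcn*) and fewer than 2 endothelial markers from 43 cells with the reverse (*Pecam1*, *Cdh5*, *Fabp4*, *Cldn5*, *Kdr*), 38 with both and 1 with neither. *Hk2* averaged 792 CPM over the cells with fibroblast markers and 9.48 CPM over those with endothelial markers. A *Hk2* UMI was found in 78.8% and 4.65% of them, at median depths of 5678 and 5128 UMIs. In the 5 hearts with endothelial-marker cells those cells held 0, 0, 4.50, 38.9 and 0 CPM, below the fibroblast-marker cells of the same heart each time (445, 556, 820, 532 and 988 CPM). These values for endothelial-marker cells rest on 4, 1, 30, 7 and 1 cells, in that order of hearts. *Epas1*, which encodes HIF-2α, ran the other way, with 697 CPM in the endothelial-marker cells and 90.6 CPM in the fibroblast-marker cells. *Hif1a* differed less (376 and 252 CPM).

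**Figure D3:**
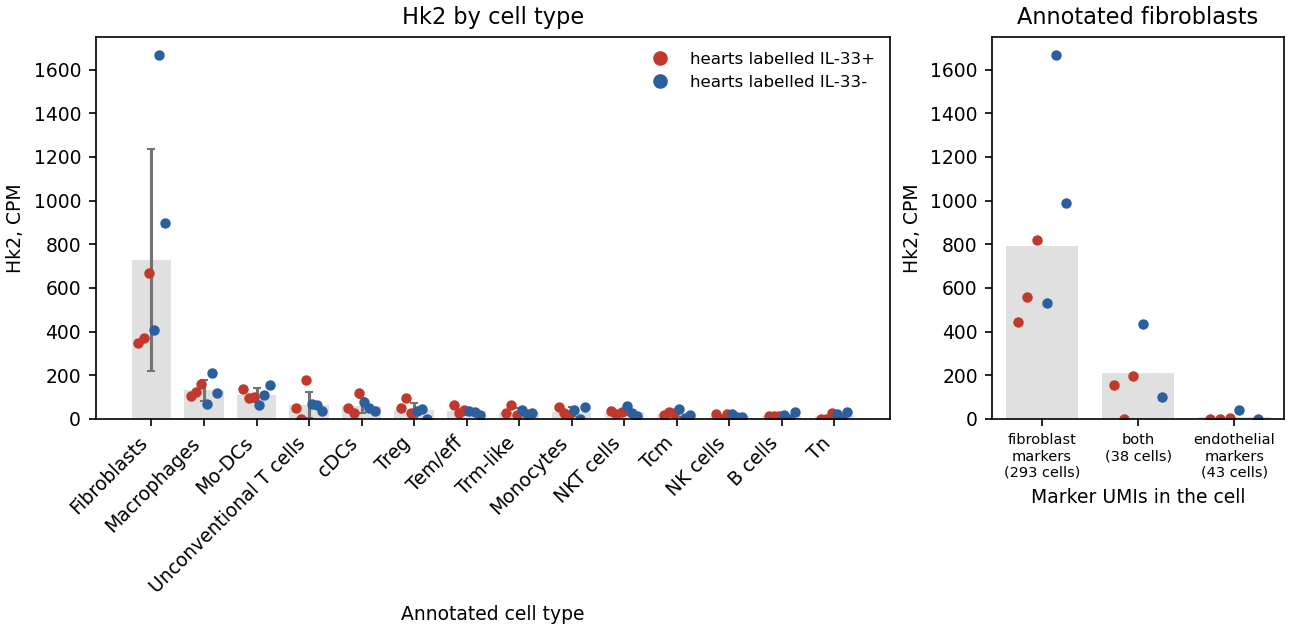
*Hk2* level in CPM by annotated cell type (left; bars are means over 6 hearts, error bars the SD, points single hearts) and within the annotated fibroblasts by marker UMIs (right; bars are means over cells, points hearts). Cells with fibroblast markers averaged 792 CPM and those with endothelial markers 9.48 CPM.

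In the later steps the type with the highest mean again changed from gene to gene. For *Gapdh*, *Eno1* and *Ldha* no step between neighbours passed its SD, so their orders are not resolved. The type with the highest mean led in 3 of 6 hearts for *Gapdh* and *Ldha*. It led in 4 of 6 for *Tpi1*, *Pgk1*, *Eno1* and *Pkm*. *Tpi1* (chr6:124810586-124814296) was highest in macrophages (272 ± 120 CPM), above Tem/eff (200 ± 75.2) in 5 of 6 hearts. *Gapdh* (chr6:125161715-125166467) was highest in Tem/eff (522 ± 105 CPM), with the caution on copies above. *Pgk1* (chrX:106187100-106203699) was highest in macrophages (670 ± 287 CPM) and Tem/eff (555 ± 189), and the latter exceeded monocytes (405 ± 108) in 6 of 6 hearts. *Eno1* (chr4:150236721-150248879) was highest in monocytes (149 ± 78.4 CPM) and macrophages (141 ± 23.2). *Pkm* (chr9:59656368-59679375) was highest in monocytes (677 ± 81.4 CPM), above macrophages (524 ± 101) in 6 of 6 hearts by 153 ± 67.4 CPM. The monocyte values of *Pkm* were 737, 574 and 804 CPM in the first group and 651, 635 and 661 CPM in the second. *Ldha* (chr7:46841475-46855627) was the most even gene, with a ratio of 2.25 between its highest type, Tem/eff (501 ± 74.7 CPM), and its lowest, fibroblasts (223 ± 59.3 CPM).

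Macrophages and monocytes of the same heart differed by gene. *Hk2*, *Pfkp* and *Tpi1* were higher in macrophages in 6 of 6 hearts (log2 differences 1.90 ± 1.44, 0.59 ± 0.21 and 1.17 ± 0.69), and *Pkm* was lower in 6 of 6 (-0.38 ± 0.20). *Hif1a* (-0.38 ± 0.61) was lower in 4 of 6. Of all genes measured in both types, 5.38% were higher in macrophages in 6 of 6 hearts. In Tem/eff, the 8 glycolytic genes measured there and in Tn cells all had a higher mean than in Tn cells, against 60.7% of all genes, and 6 were higher in 6 of 6 hearts, against 13% of all genes. The widest of these differences were *Tpi1* (2.51 ± 0.89) and *Gapdh* (2.27 ± 0.89). For Treg the count in 6 of 6 hearts was 3 (*Pfkp*, *Gapdh* and *Pgk1*), against 10.3% of all genes, and for Trm-like cells it was 1 (*Gapdh*), against 9.73%. All 9 glycolytic genes had a higher mean in NK cells than in B cells, against 57.3% of all genes, and 2 of them, *Pfkp* and *Eno1*, were higher in 6 of 6 hearts, against 12.4% of all genes. For *Hk2* this difference was only 0.01 ± 0.92, and *Slc2a1* (0.28 ± 1.35) was higher in NK cells in 2 of 6 hearts. The 4 B cells of heart 5 held 0 CPM of *Slc2a1*, *Hk2*, *Pfkp*, *Gapdh* and *Eno1*.

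*Hif1a* was lower in the proliferating cells of the 2 types that could be compared, Tem/eff and NKT cells. Cells with UMIs of at least 3 of 18 proliferation genes after thinning made up 22.0% of Tem/eff (72 of 327) and 16.4% of NKT cells (57 of 347), the types with enough such cells in 3 or more hearts. In Tem/eff, *Hif1a* averaged 932 CPM in these cells and 1740 CPM in the other cells of the 5 hearts, a log2 difference of -0.89 ± 0.21 that was negative in 5 of 5. In NKT cells the difference was -0.37 ± 0.16, negative in 3 of 3. *Tpi1*, *Gapdh*, *Pgk1*, *Eno1*, *Pkm* and *Ldha* were higher in the proliferating Tem/eff cells in 4 of 5 hearts each, with means from 0.25 to 0.52 and SDs from 0.40 to 0.70. In NKT cells, *Pkm* was higher in 3 of 3 hearts (0.29 ± 0.14). The class was cut from a score, with 65 Tem/eff cells at 2 genes and 22 at 3. Proliferating cells were deeper, with a median of 7933 against 5380 UMIs in Tem/eff and 7379 against 5589 in NKT cells. The share of all genes that were lower in every heart was not counted.

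The isozymes and partner genes came from lists drawn up for the pathway. *Hk1* ran from 4.27 CPM in B cells to 60.8 in Tem/eff, and *Hk3* was at 37.6 to 46.5 CPM in macrophages, monocytes, Mo-DCs and unconventional T cells and at 5.35 CPM or less elsewhere. *Pfkl* reached 40.9 CPM and *Pfkm* 7.61. *Ldhb* reached 16.2 CPM, *Eno3* 26.0, *Eno2* 6.79, *Eno1b* 4.56, *Aldoc* 20.1 and *Slc2a3* 50.9 CPM (Mo-DCs), while *Slc2a6* ran from 2.25 CPM in Treg to 53.6 in cDCs. *Aldoa*, the symbol of the list that held a mean over several identifiers, ran from 64.7 CPM in Tn cells to 207 in macrophages. Some further genes were picked after their values were seen. *Slc16a3*, which encodes the lactate exporter MCT4, was at 484 ± 78.0 CPM in monocytes, 257 ± 192 in Mo-DCs, 205 ± 42.4 in macrophages and 127 ± 58.2 in Treg, and at 62.0 ± 19.7 in Tem/eff and 5.48 ± 8.27 in Tn cells. *Pfkfb3*, whose product makes the activator of phosphofructokinase, was likewise highest in monocytes (102 CPM) and cDCs (90.8 CPM).

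Over the 14 types, the Pearson correlation of *Hif1a* with the glycolytic genes on mean log2(CPM + 10) was highest for *Pgk1* (0.81), *Gapdh* (0.68) and *Pkm* (0.67) and lowest for *Hk2* (0.12). Among the 36 pairs of glycolytic genes it had a median of 0.57, was above 0 in 32 (*Slc2a1* with *Ldha* being 0.00 to 2 decimals), and was highest for *Gapdh* and *Ldha* (0.84). The negative pairs were *Hk2* with *Ldha* (-0.24), *Eno1* (-0.17) and *Pkm* (-0.09). Of 3626 genes with a mean of 50 CPM or more over types, those most like *Hif1a* included *Trps1* (0.87), *Acsl4* (0.86), *Ifi27l2a* (0.85) and *Tiam1* (0.84). Those with the highest mean correlation with the 9 glycolytic genes were *Ap2s1* (0.68), *Aldoa* (0.67), *Gnai2* (0.66), *Tent5c* (0.65) and *Hpcal1* (0.63). The types share 1 library and the depth of their cells, and 14 points describe these types only.

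The promoters of *Hk2* and *Pgk1* are shown because these genes had the lowest and the highest correlation with *Hif1a* over types. They were searched for the HIF core, ACGTG or GCGTG on either strand (CACGT or CACGC when read on the other). All 10 genes were found in the RefSeq promoter table (GRCm38.p6), with 14 start sites in all, and 12 of these, belonging to 9 genes, had a match in the 250 bases before the start. Of all 32851 promoters cut to that length 38.6% had one, as did 41.5% of genes by any start. *Hk2* and *Pgk1* had 2 matches each, where 16.7% of promoters had 2 or more. *Ldha* had 5 before one of its starts, a palindrome CACGTG counting once on each strand, where 1.01% of promoters had 5 or more, and *Tpi1* had 0. Capitals mark the matches, and each sequence reads 5′ to 3′ towards the start site.
Hk2, chr6:82774455-82774704, minus strand: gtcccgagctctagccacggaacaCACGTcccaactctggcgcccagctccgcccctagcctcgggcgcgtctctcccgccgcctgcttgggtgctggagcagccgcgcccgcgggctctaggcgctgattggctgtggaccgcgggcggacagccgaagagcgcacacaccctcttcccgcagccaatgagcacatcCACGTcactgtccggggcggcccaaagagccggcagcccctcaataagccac
Pgk1, chrX:106186850-106187099, plus strand: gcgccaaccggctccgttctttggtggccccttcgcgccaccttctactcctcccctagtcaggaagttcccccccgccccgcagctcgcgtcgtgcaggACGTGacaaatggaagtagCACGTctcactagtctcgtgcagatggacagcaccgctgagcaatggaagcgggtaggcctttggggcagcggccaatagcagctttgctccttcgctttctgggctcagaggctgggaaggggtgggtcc
These genes were picked for their differing correlation with *Hif1a*, and the relation of matches to the patterns over types was not tested. A match describes letters and not a bound site, and a window without one says nothing of sites elsewhere.

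Between the graft groups, limma was used on log2(CPM + 10) of each type with the heart as the replicate, and p-values were adjusted over all genes tested in that type. The p-values measure the spread between these hearts. No member passed an adjusted p of 0.05 in any type, 0 of 139 tests (*Slc2a1* in Tn cells was too low to test), where 0.00884% of the 113177 tests over all genes did. Limma-voom on the recovered UMIs also gave 0. At an unadjusted p of 0.05 or less there were 12 members' tests (9 higher and 3 lower in hearts labelled IL-33+), 4.71% of all tests being past that mark. The groups of hearts did not overlap in 20 of the members' tests (16 higher and 4 lower), with a background of 9.82%. Of the 125 glycolytic tests, 85 had a higher mean log2(CPM + 10) in hearts labelled IL-33+, as did 56540 of the 113177 tests over all genes, and 90 had a higher mean CPM.

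In macrophages, all 9 glycolytic genes had a higher mean log2(CPM + 10) in hearts labelled IL-33+, with log2 fold changes from 0.08 to 0.73 and a median of 0.47, where 45.3% of the 9683 genes tested had a higher mean and the median over all genes was -0.05. By mean CPM the count was 8 of 9, since *Hk2* was at 129 ± 27.5 against 132 ± 72.7 CPM. *Ldha* was at 563, 435 and 493 CPM in the hearts labelled IL-33+ and at 338, 335 and 257 CPM in those labelled IL-33-. Every heart of the first group was above every heart of the second, and the log2 fold change was 0.67 ± 0.22 (SE; unadjusted p = 0.00626, adjusted p = 0.987 in limma). *Slc2a1* was at 84.4, 133 and 95.4 against 46.5, 71.8 and 57.5 CPM, again without overlap (0.73 ± 0.32, adjusted p = 0.987 in limma). *Pfkp* was at 297, 319 and 276 against 251, 211 and 178 CPM, also without overlap (0.47 ± 0.23, same adjusted p). *Pgk1* overlapped, with 1179, 618 and 700 against 381, 721 and 421 CPM (0.70 ± 0.26). Non-overlap with the first group higher was found in 3 of the 10 members and in 3.82% of all genes in macrophages. *Hif1a* itself was at 484, 955 and 452 against 620, 675 and 625 CPM, a log2 fold change of -0.11 ± 0.24 that changed sign without heart 1 (0.04) or heart 3 (0.09).

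Beside these values, the summed level of 9 dissociation and stress genes in macrophages was 3544, 3323 and 9130 CPM in the hearts labelled IL-33+ and 3172, 4421 and 3039 CPM in those labelled IL-33-, and that of 8 neutrophil markers was 2721 CPM in heart 5 and 26.5 to 168 CPM in the others. Median depth was 6243 to 7122 UMIs per macrophage. Without heart 1, 2, 5 or 6 the count of glycolytic genes with a higher mean stayed at 9, and without heart 3 or 4 it was 8. Heart 2 gave 10 macrophages. The part of these values in the difference was not tested. Of other genes of the pathway in macrophages, *Gpi1* (0.54 ± 0.23) and *Aldoc* (0.99 ± 0.47) were the only 2 of 11 further glycolytic enzymes at an unadjusted p of 0.05 or less, and *Pgd*, of the pentose phosphate pathway, was lower (-0.76 ± 0.26), with 199, 119 and 160 against 249, 240 and 336 CPM. None passed the adjusted threshold (limma, adjusted p = 0.987).

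**Figure D4:**
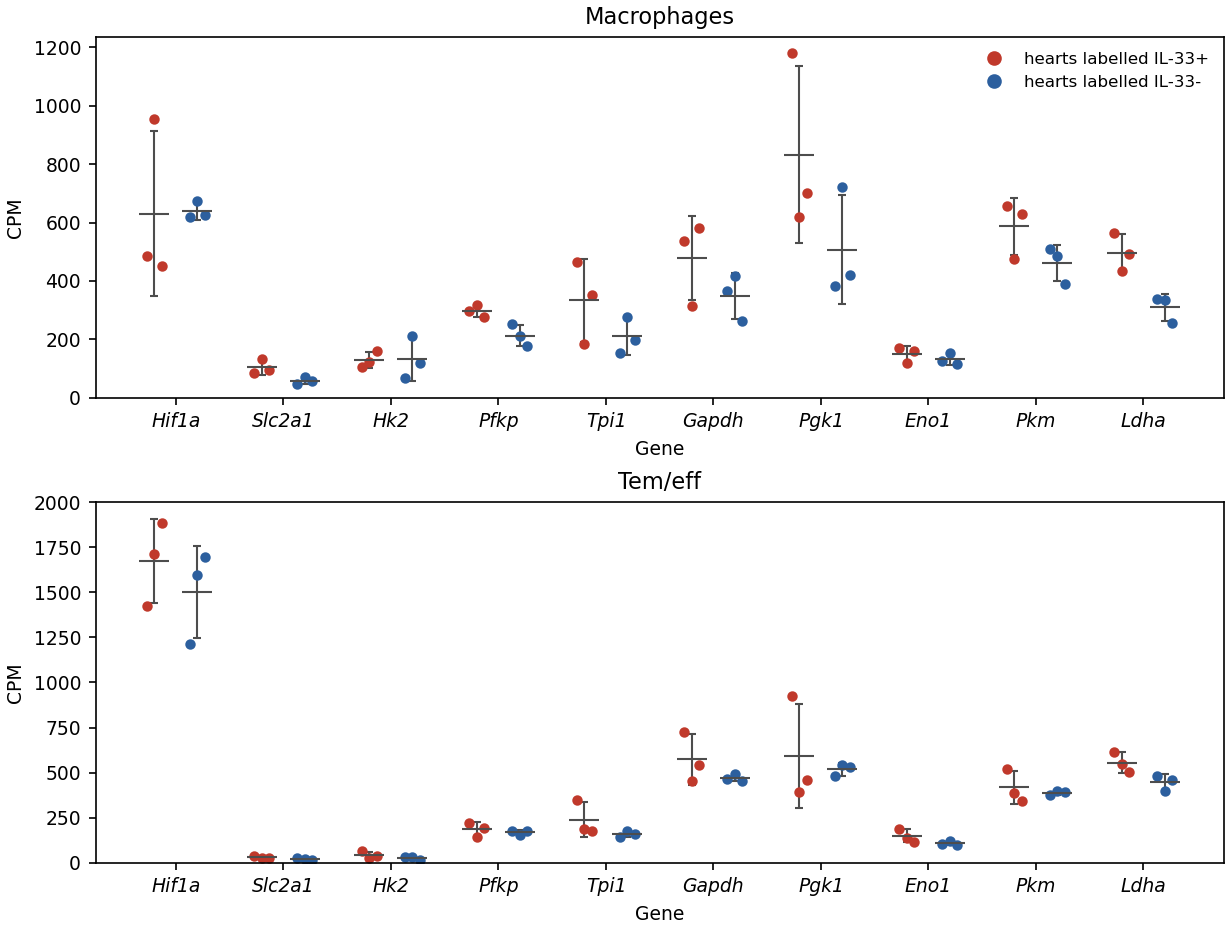
Levels in CPM of the 10 genes in macrophages (top) and Tem/eff (bottom) by graft label. Points are single hearts, horizontal marks the mean of 3 hearts and error bars the SD; in macrophages the groups separate for *Slc2a1*, *Pfkp* and *Ldha*, and in both types *Hif1a* overlaps.

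In Tem/eff all 9 glycolytic genes also had a higher mean in hearts labelled IL-33+, where 47.2% of genes did, but the log2 fold changes were smaller (0.08 to 0.48, median 0.31). Heart 1 stood apart, since its summed glycolytic level was 3651 CPM and that of the other 5 hearts 2292 to 2402 CPM, and without heart 1 the count was 6. *Ldha* was at 617, 547 and 503 against 484, 399 and 459 CPM, without overlap (0.31 ± 0.16). *Tpi1* was at 350, 187 and 179 against 145, 176 and 159 CPM, without overlap. *Slc2a1* was at 38.6, 25.8 and 27.9 against 25.6, 19.3 and 15.5 CPM, also without overlap. Both were parted narrowly, by 179 against 176 and by 25.8 against 25.6 CPM. Over all genes and types 9.82% of tests did not overlap in either direction, and the share in Tem/eff alone was not counted. The adjusted p in limma was 0.998 for *Ldha*, *Tpi1* and *Slc2a1*. Proliferation genes summed to 2412, 1793 and 1759 against 2535, 1511 and 2219 CPM.

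*Tpi1* met the rule for naming (no overlap, or an unadjusted p of 0.05 or less) in 5 types, the most of the 10 genes. The share of all genes that met it in as many types was not counted, and 9.82% of all tests did not overlap. In cDCs it was at 157, 134 and 154 CPM in the hearts labelled IL-33+ and at 51.1, 54.1 and 56.9 CPM in those labelled IL-33-. Both groups were tight and did not overlap (log2 fold change 1.30 ± 0.35, unadjusted p = 0.00180, adjusted p = 0.341 in limma), although heart 2 held 6 and heart 5 held 9 cDCs. With hearts of at least 10 cells only, the log2 fold change was 1.37 and the adjusted p 0.202 in limma. Dissociation and stress genes in cDCs had a median of 0.68, with 3 of 9 higher at an unadjusted p of 0.05 or less, *Fosb* (0.99 ± 0.35), *Jun* (0.68 ± 0.27) and *Fos* (0.69 ± 0.33). Their summed level was 2914, 3008 and 3664 against 2611, 3151 and 3079 CPM, and its part in the cDC differences was not tested. *Tpi1* also stood apart in Mo-DCs (192, 188 and 242 against 53.7, 90.3 and 110 CPM, with 4 and 7 cells in hearts 2 and 5) and, with overlap, had a higher mean in Treg (153, 36.7 and 131 against 59.8, 57.7 and 7.30 CPM). In unconventional T cells it was at 296, 140 and 445 against 92.0, 123 and 102 CPM (1.26 ± 0.44), but without the cells of high Scrublet score the value was -0.73. Of the other glycolytic genes in cDCs, *Pgk1* was at 336, 298 and 265 against 142, 246 and 149 CPM without overlap (0.75 ± 0.29, adjusted p = 0.689 in limma).

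For *Hif1a* the direction by label varied with the type. In Treg it was higher in hearts labelled IL-33+ (1324 ± 263 against 959 ± 176 CPM, n = 3 each, log2 fold change 0.46 ± 0.20, adjusted p = 0.923 in limma), with overlap between the groups. In NKT cells its values were 254, 281 and 248 against 208, 248 and 178 CPM, in NK cells 135, 161 and 165 against 172, 247 and 185 CPM, and in Tcm cells 126, 143 and 143 against 231, 178 and 163 CPM. The first of these 3 was higher and the other 2 lower without overlap. Heart 3 and heart 5 of the NKT cells were both at 248 CPM when rounded. Proliferation genes in NKT cells had a median log2 fold change of -0.51 by label. Of 18 tested, 6 were lower in hearts labelled IL-33+ at an unadjusted p of 0.05 or less in limma. Over all genes and types 4.71% of tests were past that mark. *Hif1a* was also lower in proliferating NKT cells, and the part of this shift in the NKT values was not tested. In Treg, *Pgk1* was higher (408, 288 and 340 against 250, 230 and 257 CPM) and *Eno1* lower (59.6, 66.6 and 75.2 against 101, 82.4 and 84.1 CPM), both without overlap, with adjusted p-values of 0.946 and 0.976 in limma. The summed level of the 9 glycolytic genes in Treg was 2146, 1605 and 2035 against 1541, 1486 and 1549 CPM, without overlap. This sum did not overlap in 1 of the 14 types, where 9.82% of single-gene tests over all genes and types did not. The separation is thus not shown to be particular to Treg. In Treg the dissociation and stress genes had a median log2 fold change of 0.71, with 3 of 9 higher at an unadjusted p of 0.05 or less, *Fos* (1.21 ± 0.34), *Egr1* (1.33 ± 0.42) and *Jun* (0.93 ± 0.35). Their summed level was 4039, 7970 and 9963 against 4750, 4991 and 5313 CPM, and erythroid genes summed to 4719 CPM in heart 3, 15969 CPM in heart 5 and 160 to 248 CPM in the others. The part of these values in the Treg differences was not tested.

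The remaining values that met the naming rule pointed both ways. *Hk2* in fibroblasts was lower in hearts labelled IL-33+ (log2 fold change -0.93 ± 0.36, unadjusted p = 0.0141, adjusted p = 0.998 in limma), but the high value of 1667 CPM came from the 4 fibroblasts of heart 5. Without that heart the value was -0.45, and with hearts of at least 10 cells -0.33. Within the fibroblast-marker cells it was -0.70. *Gapdh* was lower in Tn cells (48.0, 58.7 and 94.4 against 107, 228 and 131 CPM) and, with overlap, in NK cells (141 ± 56.0 against 203 ± 41.0 CPM), and higher in fibroblasts (150, 138 and 160 against 135, 38.1 and 130 CPM). The 38.1 CPM came from the 4 fibroblasts of heart 5, and the log2 fold change there ran from 0.16 to 0.96 over the alternatives. *Pfkp* was higher in monocytes (163, 180 and 205 against 150, 149 and 140 CPM), *Pkm* in unconventional T cells (535, 651 and 551 against 333, 351 and 477 CPM), and *Slc2a1* in B cells (42.5, 31.2 and 49.0 against 16.9, 0 and 21.6 CPM). The 651 and 477 CPM of *Pkm* came from the 2 and 4 unconventional T cells of hearts 2 and 6. Of the 83 cells of that type, 51 had high Scrublet scores. Dissociation and stress genes there summed to 4423, 5319 and 6494 against 3521, 2855 and 3533 CPM. The part of these values in the *Pkm* difference was not tested. The 0 of *Slc2a1* came from the 4 B cells of heart 5. In B cells the median over all genes was 0.28, so that values there are read against that shift.

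**Figure D5:**
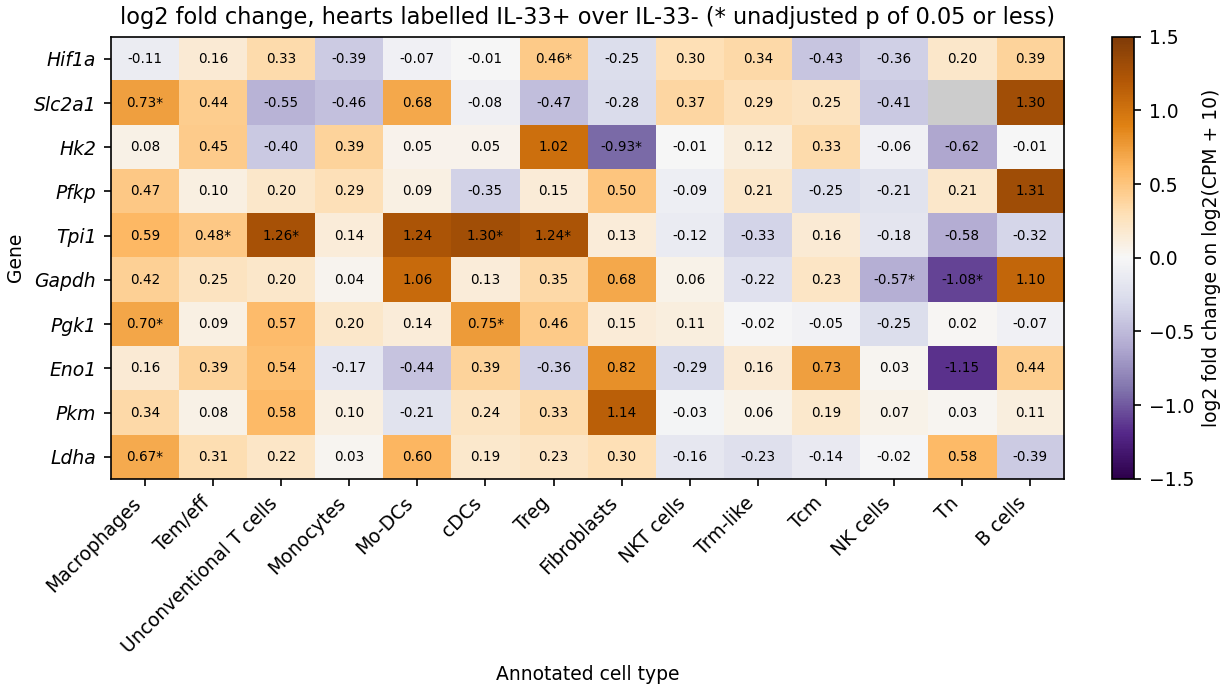
Log2 fold change of each gene (rows) in each annotated cell type (columns), hearts labelled IL-33+ over IL-33-, on log2(CPM + 10). Asterisks mark the 12 values with an unadjusted limma p of 0.05 or less, none of which passed adjustment; grey marks *Slc2a1* in Tn cells, which was not tested.

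Whether a difference by label itself differed between types was tested on within-heart differences for 78 pairs of types. No member passed in 768 tests (limma; smallest adjusted p = 0.306, *Tpi1* in cDCs against Tcm, with 2 hearts in each group after those with fewer than 10 cells were dropped), and 79 were at an unadjusted p of 0.05 or less, while 4.87% of all 519291 tests were. The macrophage values are thus not shown to be particular to macrophages.

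The other lists gave no adjusted call in any type. Of 25 further HIF-1 target genes, 270 tests were made over the types, of which 18 were higher and 4 lower in hearts labelled IL-33+ at an unadjusted p of 0.05 or less, with a median log2 fold change of 0.17. Over all genes 4.71% of tests were past that mark in either direction, which is also the background for the lists that follow. The lists overlap, since 8 of the 25 targets, *Slc16a3* among them, are in another list as well and are counted in both. *Vegfa*, which encodes an angiogenic growth factor, was higher in NKT cells (0.46 ± 0.15), unconventional T cells (1.13 ± 0.38), macrophages (0.70 ± 0.30), Tcm cells (0.63 ± 0.30) and cDCs (1.02 ± 0.46), and lower in Mo-DCs (-1.57 ± 0.63). Its Mo-DC values were 236, 0 and 1015 against 137, 606 and 714 CPM, and the 0 came from the 4 cells of heart 2. *P4ha1*, a collagen prolyl hydroxylase subunit, was higher in Tem/eff (0.87 ± 0.31), Treg (1.59 ± 0.62) and cDCs (1.30 ± 0.54). *Slc16a3* was higher in unconventional T cells (1.57 ± 0.60) and Mo-DCs (1.26 ± 0.64) and lower in Treg (-0.96 ± 0.41). Its highest Mo-DC value, 623 CPM, came from the same 4 cells of heart 2. Heart 2 gave 2 unconventional T cells, and 51 of the 83 cells of that type had high Scrublet scores. *Ndrg1* in fibroblasts (-1.66 ± 0.57) and *Bnip3l* in Tcm cells (-0.61 ± 0.25) were lower. The counts higher and lower were 7 and 2 of 102 tests for the other glycolytic enzymes. They were 4 and 3 of 54 for glucose and lactate transporters and 1 and 0 of 30 for regulators of fructose bisphosphates. For the entry of pyruvate to mitochondria they were 2 and 2 of 139, and for the pentose phosphate pathway 2 and 5 of 93. HIF subunits and oxygen sensors gave 2 and 1 of 88. Dissociation and stress genes gave 16 higher and 2 lower of 126 tests (median 0.24), a shift that went with the labels in the same direction as that of the HIF-1 targets, and its part in them was not tested. Proliferation genes gave 6 and 7 of 134, with 6 of the lower tests in NKT cells. Erythroid genes gave 4 and 4 of 55, and cardiomyocyte genes allowed 1 test.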

How the data were processed

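Cells of 6 transplanted hearts were hashtagged, pooled and sequenced by 10x 3′ chemistry. The authors aligned and counted reads with Cell Ranger on mm10, kept cells by UMIs, genes and mitochondrial share in Partek 10.0.23.0425 (per the submitters' processing notes), annotated cell types, and deposited log2(CPM + 1) per cell as log2 values. A further deposited table gives each cell's type, graft label and hashtag.

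From these values UMIs were recovered (99.94% of values of 10 UMIs or fewer lay within 0.05 of a whole number), and CPM was averaged per type and heart. Hearts were grouped by the hashtag list of the design text. Graft groups were compared with limma 3.58.1 (R 4.3.3; trend, Benjamini-Hochberg) for genes with at least 10 UMIs over hearts and a UMI in 3 hearts, checked on simulated data. Named were the 10 members, their values with an unadjusted p of 0.05 or less or no overlap, *Hif1a* in macrophages, other list genes by smallest p (at most 5 per type), isozymes, and the 5 genes most alike, of which some are not reported here. Doublets were scored with Scrublet (scanpy 1.11.5), whose own threshold marked 3 cells and so did not work here, and no cell was removed except in 1 alternative, by the highest 6% of scores. Copies were sought with BLAST+ 2.17.0. Members and lists were chosen with earlier results of these data known. Positions are GENCODE vM21 genes by symbol. Hearts held 908135 to 7012949 UMIs, and the few hearts limit precision.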

Additional observations from a re-analysis of the deposited data

How the results depend on the processing

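No paired analysis was possible because GEO's labels number the hearts 1 to 6 without a number shared between groups. Members called between graft groups stayed at 0 of the tested pairs under every alternative run (pseudocounts of 1 and 50 CPM, no filter, summed UMIs, limma-voom, robust empirical Bayes, median ratio scaling, hearts with at least 10 cells, removal of high Scrublet scores, and each heart left out), as did members whose difference varied between types with each heart left out. Over all genes and types, the 10 calls became 3 with a pseudocount of 1 CPM, 37 with 50 CPM, 67 without the filter, 28 with limma-voom, 16 with robust empirical Bayes, 6 with median ratio scaling, 19 without high Scrublet scores, and 4 to 108 with a heart left out. Of 391 alternative values for the 26 named pairs of gene and type, 388 kept direction and side of the threshold. *Hif1a* in macrophages (-0.11) turned to 0.04 without heart 1 and 0.09 without heart 3 (-0.44 to 0.09 with any heart left out), and *Tpi1* in unconventional T cells (1.26) to -0.73 without high Scrublet scores, where 51 of 83 cells were removed. The smallest adjusted p was 0.0739 (*Hk2* in fibroblasts without heart 4). Levels of each gene in its highest type, and the differences described for *Hif1a* and *Hk2*, moved by less than 1 SD under each alternative. With 3 hearts a group and few cells in some, small differences were not detectable at this depth. The alternatives for the counts of glycolytic genes with a higher mean (8 to 9 in macrophages, 6 to 9 in Tem/eff), the leave-outs of the comparison between types and of proliferating cells and the split of fibroblasts were chosen after seeing the data.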
